A study of Mus musculus with 18 samples.

Results

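Mouse bone marrow MSCs, the stromal cells that adhere and grow out of flushed marrow, express a set of genes for the large proteins of the basement membrane, and 10 of these are described here out of 27179 genes in the deposited table. They were chosen by name as the laminin chains Lama2, Lama4, Lama5, Lamb1, Lamb2 and Lamc1, the nidogens Nid1 and Nid2, and the proteoglycan genes Hspg2 (perlecan) and Agrn (agrin). No measured value entered this choice. RNA was sequenced from 18 cultures of C57BL6 MSCs, 6 in each of 3 groups, all harvested at day 7. Young MSCs came from mice of 6 weeks and old MSCs from mice of 18 to 24 months, male animals in both cases, and neither group carried a transgene or was given an agent. Rejuvenated old MSCs were old MSCs grown for those 7 days at 100000 cells per well beside young MSCs, on the other side of a Transwell membrane with 0.4 micron pores that passes soluble factors but not cells. Old MSCs with old partner cells were not analysed here, so the age of the partner cells and their presence cannot be told apart. How many mice stand behind the 6 cultures of a group is not given in the sources used here, and the p-values below measure the spread between these cultures.

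A basement membrane is a thin sheet of matrix that cells bind on one face. Laminins are heterotrimers of 1 alpha, 1 beta and 1 gamma chain that polymerise on the cell surface, the alpha chain carries the main sites for integrins and dystroglycan, and nidogens link the laminin network to the type IV collagen network. Perlecan and agrin carry heparan sulfate chains, which bind growth factors and laminin. In marrow, laminins with the alpha 4 or alpha 5 chain lie around sinusoids and arterioles and in the stromal niche.

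Lama5 and Hspg2 moved in opposite directions in rejuvenated old MSCs, and the sequence upstream of each is shown to let a reader compare them. The windows come from RefSeq (GRCm38.p6), where 7 of the 10 members matched and Lama4, Lamc1 and Nid2 did not. Each is printed 5′ to 3′ on the strand of its gene, up to the outermost annotated start of the gene, with every match to the GC box GGGCGG on either strand in capitals. The Lama5 window is chr2:180225905-180226109 on the minus strand and the Hspg2 window is chr4:137468553-137468750 on the plus strand.
Lama5: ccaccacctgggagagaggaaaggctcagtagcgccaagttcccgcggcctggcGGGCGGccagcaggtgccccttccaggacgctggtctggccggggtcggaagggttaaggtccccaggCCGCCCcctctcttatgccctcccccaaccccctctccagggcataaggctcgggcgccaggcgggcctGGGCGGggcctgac
Hspg2: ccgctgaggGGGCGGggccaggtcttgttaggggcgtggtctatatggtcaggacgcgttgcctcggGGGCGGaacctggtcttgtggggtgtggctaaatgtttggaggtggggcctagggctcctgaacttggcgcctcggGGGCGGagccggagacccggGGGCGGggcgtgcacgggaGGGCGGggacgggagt
Over the full 250 bases the Lama5 window held 4 GC boxes and the Hspg2 window 5, with a GC content of 72.4% and 70.0%. Of all 32851 windows of this length 32.7% held at least 1 GC box, and the median GC content was 52.4%. The Lama2 window had 0 GC boxes, 0 CpG and 47.2% GC. Only 1 of its 250 bases lay upstream of the outermost annotated start, so it is not a like stretch to those of Lama5 and Hspg2. Lamb2, with 235 bases upstream of that start, also had 0 GC boxes and 43.6% GC. Lamb1 had 2, both past its outermost annotated start, with 103 bases of its window upstream of that start. Nid1 had 1, with all 250 bases upstream. None of the windows of the members held the TATA box TATAAA, which 12.4% of all windows held. A match is a string of letters and is not evidence that a factor binds there.

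Depth was 22936251 to 29559194 reads per library over all genes, a spread of 1.29 times. Levels are given as normalized counts, that is reads after division by the size factor of the library, and levels of different genes are compared only after division by transcript length in kb. Differences are log2 fold changes on the log2(normalized count + 1) scale from limma, with a Benjamini-Hochberg adjusted p over all 14353 genes with a mean of at least 10, and a gene is said to have risen or fallen where this was under 0.05. All 10 members passed the filter, Lama2 by its young libraries only. Of 10 marrow stromal markers, 9 were expressed in every library, and several differed widely between the groups. Thy1 had 175 to 227 normalized counts in the young libraries and at most 3 reads in any old one, with up to 21.6 normalized counts in a rejuvenated old one, and Ly6a had means of 25100.1, 6135 and 12899.5 in young, old and rejuvenated old MSCs. Eng (163, 7340.3 and 7741), Lepr (36.2, 378 and 308) and Cxcl12 (9227, 197374 and 238458) were higher in both old groups, and Cd44, Pdgfra, Pdgfrb, Col1a1 and Col1a2 had means of at least 2137 normalized counts in each group. The macrophage markers Ptprc and Adgre1 had 0 reads in every young library and means of 179 and 296 normalized counts in the old MSCs, and the summed level of 5 macrophage markers was 497 to 583 in young MSCs, 2549 to 3123 in old MSCs and 2378 to 2867 in rejuvenated old libraries. The 5 endothelial markers, which would mark another marrow source of laminins, summed to 104 to 140, 18.3 to 40.4 and 14.2 to 25.1 normalized counts, with Cdh5 at 0 reads in every old library. The 5 mural markers, nearly all of this from Acta2, summed to 37019 to 39064 normalized counts in young, 103008 to 113538 in old and 103105 to 118397 in rejuvenated old libraries. Rgs5, Myh11 and Notch3 also had higher means in both old groups. Cspg4 went the other way, with means of 160, 21.5 and 18.3 in young, old and rejuvenated old MSCs. The 4 adipocyte markers summed to 16639 to 19129.5, 36890.3 to 39566 and 40380.0 to 51380.3, most of this from Lpl. Lpl and Pparg had higher means in rejuvenated old than in old MSCs (40582.6 against 32967.9, and 4948.35 against 4268.96). Adipoq and Plin1 had lower means there (760.236 against 1158.51, and 17.9741 against 29.1951). Adipoq had at most 3 reads in any young library. The 4 epithelial markers summed to at most 5.77 and the 3 glial markers to 71.5 to 138 in all libraries. The part of these in the results was not tested. In bulk RNA fewer cells of a type and less RNA per cell cannot be told apart.

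Between rejuvenated old and old MSCs 4 of the 10 members were called, 1 higher and 3 lower, where 41.6% of all genes tested were called, 21% higher and 20.6% lower. Lama5 rose, and Lamc1, Lama4 and Hspg2 fell. These 4 were also the members whose libraries did not overlap between the groups, a property of 22% of all genes. The share of members called was thus near the background. The median absolute log2 fold change was 0.13 over the members and 0.15 over all genes tested. Between young and old MSCs 10 of 10 members were called, against 85.7% of all genes, with 4 higher in young MSCs (41.6% of all genes) and 6 lower (44.1%). There 9 members did not overlap, against 73.9% of all genes. Lama2 had to differ from young MSCs, since it passed the filter by its young libraries, and of the other 9 members 9 were called, 3 higher and 6 lower, and 8 did not overlap. Both comparisons use the same 6 old libraries, so for each member their values are given side by side.

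**Figure D1:**
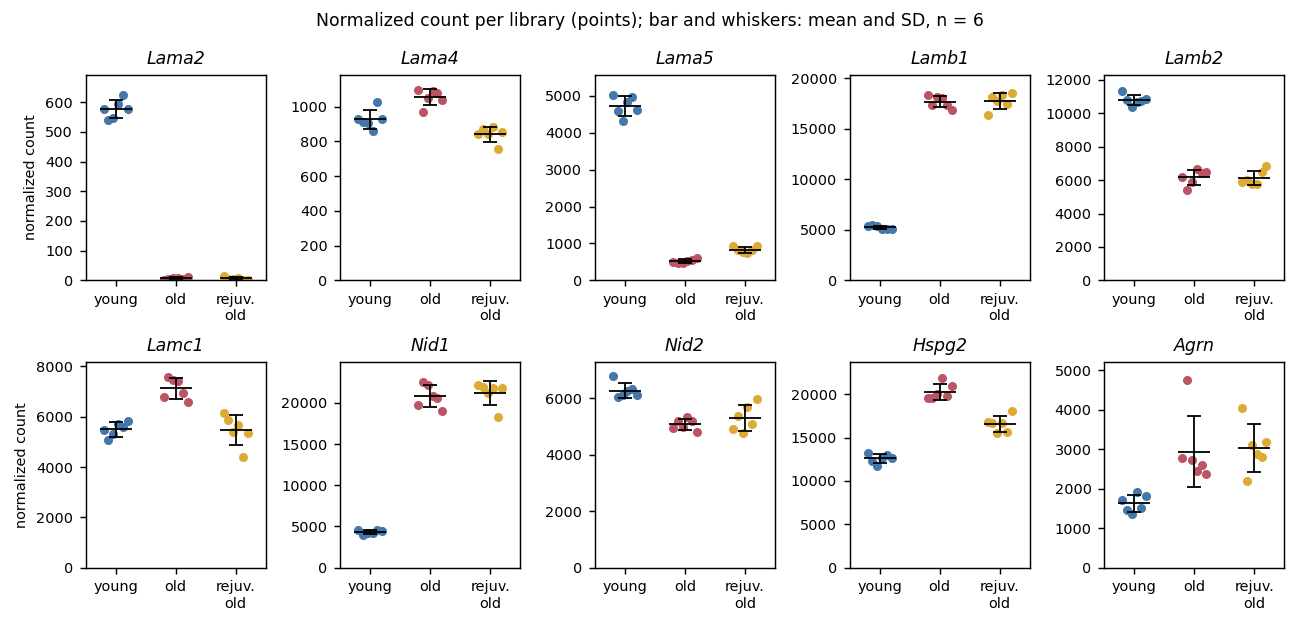
Normalized count (y axis, from 0) of each of the 10 members in every library, as points for the 6 young, 6 old and 6 rejuvenated old cultures, with a bar at the mean and whiskers of 1 SD. Lama5 in rejuvenated old MSCs lies between 739 and 942, above all old libraries and far below the young ones, while the Lamb1 and Nid1 libraries of both old groups overlap.

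Of the members, Lama2 and Lama5 had the largest differences between young and old MSCs, and Lama4 the smallest. Lama5, the broadly expressed alpha chain of adult basement membranes, ran from 4322 to 5029 normalized counts in the young libraries (median 4733), from 463 to 617 in the old ones (median 511) and from 739 to 942 in the rejuvenated old ones (median 817). The 3 groups did not overlap. Lama5 was 1.61-fold higher in rejuvenated old than in old MSCs (log2 fold change 0.68 ± 0.07 SE, limma adjusted p = 3.12e-08) and 9.13-fold higher in young than in old MSCs (3.19 ± 0.07, limma adjusted p = 6.59e-22). It still stood 5.68-fold lower in rejuvenated old than in young MSCs. The interval of the rise over old MSCs was 0.55 to 0.82 on the log2 scale. Every other member that was called in this comparison fell.

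Lama4, the alpha chain typical of vessel walls and of mesenchymal cells, fell. Its normalized counts were 860 to 1026 in young MSCs (median 921), 971 to 1097 in old MSCs (median 1064) and 758 to 883 in rejuvenated old libraries (median 849). Old and rejuvenated old libraries did not overlap, while the young ones overlapped both. The fall in rejuvenated old MSCs was 1.25-fold (log2 fold change -0.32 ± 0.05 SE, limma adjusted p = 4.79e-06). Young MSCs were 1.14-fold below old MSCs (-0.18 ± 0.05, limma adjusted p = 0.000649), and rejuvenated old MSCs were also below young MSCs (-0.14 ± 0.05, limma adjusted p = 0.00651). The level in rejuvenated old MSCs was thus the lowest of the 3 groups.

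Lama2, the alpha chain of muscle and peripheral nerve basement membranes, was a gene of the young cultures. It had 541 to 622 normalized counts in young libraries (median 578), 2.15 to 11.5 in old ones (median 7.26) and 2.79 to 13.4 in rejuvenated old ones (median 4.73). In reads this was 489 to 587 per young library, 2 to 12 per old library and 3 to 13 per rejuvenated old library. Young and old MSCs differed 78.4-fold (log2 fold change 6.29), a value that the added 1 pulls down and that is a description only, since the young libraries alone brought Lama2 past the filter. Between rejuvenated old and old MSCs the difference was -0.19 with a 95% interval from -0.85 to 0.46 (limma adjusted p = 0.665), so a change of that size in either direction was not detectable at this depth.

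The beta chains differed between young and old MSCs and were not called between the old groups. Lamb1, the beta chain of embryonic and many vascular laminins, had 5057 to 5428 normalized counts in young libraries (median 5225), 16859 to 18305 in old ones (median 17692) and 16396 to 18509 in rejuvenated old ones (median 17916). Old and rejuvenated old libraries overlapped over nearly their full range. Young MSCs were 3.38-fold lower than old MSCs (log2 fold change -1.76 ± 0.03 SE, limma adjusted p = 4.58e-23). Rejuvenated old and old MSCs differed by 0.01 with a 95% interval from -0.06 to 0.07 (limma adjusted p = 0.90).

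Lamb2, the beta chain of synaptic, glomerular and mature vascular laminins, went the other way. Its normalized counts were 10360.3 to 11329 in young MSCs (median 10762), 5420.4 to 6654 in old MSCs (median 6312) and 5741 to 6833 in rejuvenated old libraries (median 5958). No young library came near the others. Young MSCs were 1.75-fold higher than old MSCs (log2 fold change 0.81 ± 0.05 SE, limma adjusted p = 1.72e-13), and rejuvenated old MSCs differed from old MSCs by -0.01 with a 95% interval from -0.11 to 0.09 (limma adjusted p = 0.857).

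Lamc1 encodes the gamma chain shared by most laminins. It had 5055 to 5845 normalized counts in young libraries (median 5531), 6569 to 7560.0 in old ones (median 7192) and 4386 to 6137 in rejuvenated old ones (median 5528). The old libraries stood above all 12 others, and the young and rejuvenated old libraries overlapped. Lamc1 fell 1.31-fold in rejuvenated old against old MSCs (log2 fold change -0.39 ± 0.06 SE, limma adjusted p = 1.86e-05) and was 1.30-fold lower in young than in old MSCs (-0.37 ± 0.06, limma adjusted p = 4.37e-06). Rejuvenated old and young MSCs differed by -0.01 with a 95% interval from -0.14 to 0.11 (limma adjusted p = 0.838).

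The nidogens took opposite places in young and old MSCs. Nid1, the classical bridge between laminin gamma 1 and type IV collagen, had 4025 to 4604 normalized counts in young libraries (median 4364), 19013 to 22489 in old ones (median 20726) and 18269.9 to 22115 in rejuvenated old ones (median 21814). Young MSCs lay 4.78-fold below old MSCs (log2 fold change -2.26 ± 0.05 SE, limma adjusted p = 9.54e-22). Rejuvenated old and old libraries overlapped, with a difference of 0.03 and a 95% interval from -0.07 to 0.13 (limma adjusted p = 0.713). Nid2, its paralog, had 6042 to 6783 normalized counts in young MSCs (median 6190.5), 4797 to 5357 in old MSCs (median 5085) and 4786 to 5962 in rejuvenated old libraries (median 5237). The young libraries stood above both old groups, and the old groups overlapped. Young MSCs were 1.24-fold higher than old MSCs (0.31 ± 0.05, limma adjusted p = 1.97e-06), and rejuvenated old and old MSCs differed by 0.06 with a 95% interval from -0.04 to 0.16 (limma adjusted p = 0.322). Nid2 shares 437 bases with Rtraf, a protein-coding gene on the opposite strand with a mean of 4286 normalized counts, and the strand setting of the read counting is not given in the sources used here.

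Hspg2 encodes perlecan, the main heparan sulfate proteoglycan of vessel basement membranes. It ran from 11661 to 13188 normalized counts in young libraries (median 12676), from 19535 to 21867 in old ones (median 19914) and from 15507 to 18068 in rejuvenated old ones (median 16704). The 3 groups did not overlap, and the rejuvenated old libraries lay between the other two groups. Hspg2 fell 1.22-fold in rejuvenated old against old MSCs (log2 fold change -0.29 ± 0.04 SE, limma adjusted p = 3.33e-06) and was 1.61-fold lower in young than in old MSCs (-0.69 ± 0.04, limma adjusted p = 1.17e-13). Against young MSCs the rejuvenated old MSCs were still 1.32-fold higher (0.40 ± 0.04, limma adjusted p = 2.70e-09).

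Agrn encodes agrin, the proteoglycan that clusters acetylcholine receptors at the synapse through Lrp4 and Musk and that also binds dystroglycan. Its normalized counts were 1367 to 1926 in young MSCs (median 1615), 2368 to 4745 in old MSCs (median 2653) and 2183 to 4043 in rejuvenated old libraries (median 2994). Young libraries lay below all others, and the old groups overlapped. Young MSCs were 1.76-fold lower than old MSCs (log2 fold change -0.81 ± 0.14 SE, limma adjusted p = 1.56e-05). Rejuvenated old and old MSCs differed by 0.07 with a 95% interval from -0.23 to 0.36 (limma adjusted p = 0.748), which is wider than for any other member but Lama2. Leaving out old replicate 2 gave 0.21 (limma adjusted p = 0.126). Leaving out rejuvenated old replicate 1 gave -0.022 (limma adjusted p = 0.917).

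**Figure D2:**
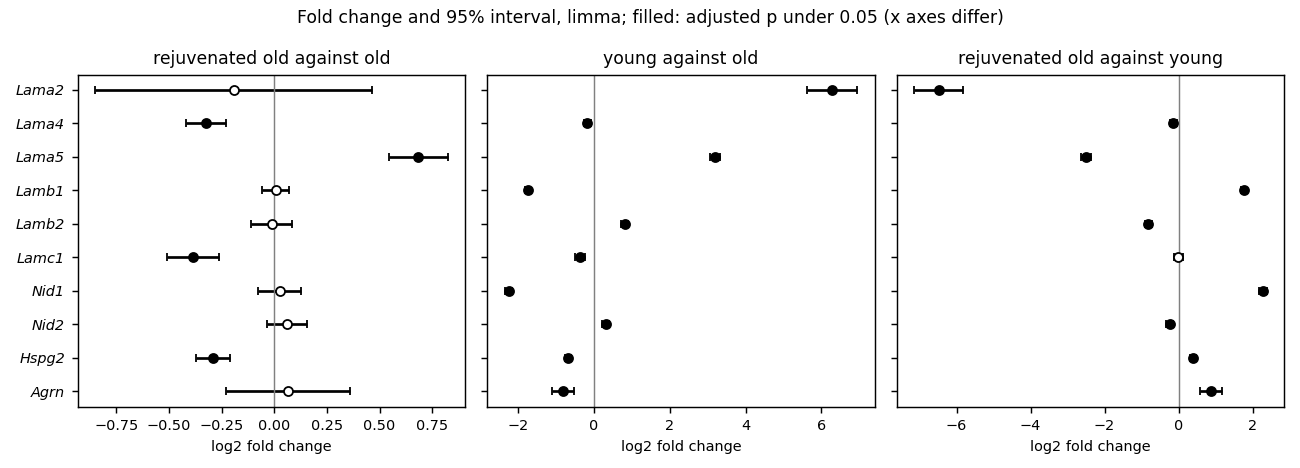
Log2 fold change (x axis, a different range in each panel) of each member in the 3 comparisons, with its 95% interval from limma, as filled points where the adjusted p was under 0.05 (for Lama2 against young MSCs a description only). In rejuvenated old against old MSCs only Lama5 lies to the right with a filled point, at 0.68, and Lamc1, Hspg2 and Lama4 lie between -0.39 and -0.29.

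Against young MSCs, 9 of 10 members were called in rejuvenated old MSCs, where 85.6% of all genes were called. Of the members 4 were higher (44.1% of all genes) and 5 lower (41.5%), and 8 did not overlap (70.5% of all genes). Without Lama2 these were 8 of 9 called, 4 higher and 4 lower, and 7 without overlap. Lamc1 was the member not called. Nid1 stood 4.86-fold and Lamb1 3.39-fold above the young level, and Lamb2 1.76-fold below it.

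Per kb of transcript, the order of the members differed between young and old MSCs. In young MSCs Lamb2 was highest (1916 ± 56 SD normalized counts per kb, n = 6), followed by Nid2 (1287 ± 56) and then Lamb1 (904 ± 26) and Hspg2 (888 ± 38), whose ranges overlapped. In old MSCs Nid1 (3415 ± 220) and Lamb1 (3056 ± 97) led with overlapping ranges, and Hspg2 (1431 ± 66) came next. Lamb2, Nid2 and Lamc1 followed in the old MSCs, and Agrn, Lama4, Lama5 and Lama2 closed the order without overlap. The rejuvenated old MSCs had the members in the same order as the old ones, from Nid1 (3476 ± 239) and Lamb1 (3070.1 ± 133) to Lama5 (73.2 ± 7.18) and Lama2 (0.661 ± 0.447).

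The alpha chain composition differed between old and rejuvenated old MSCs. Of the normalized counts per kb of the 3 alpha chain members, Lama5 held 66.0% ± 1.19 (SD, n = 6) in young MSCs, 20.6% ± 1.75 in old MSCs and 34.3% ± 2.60 in rejuvenated old MSCs. Lama4 held 24.4% ± 1.15, 79.0% ± 1.84 and 65.4% ± 2.59, and Lama2 held 9.55% ± 0.274, 0.333% ± 0.154 and 0.307% ± 0.200. The Lama5 share ran from 19.1% to 23.9% in old and from 30.6% to 37.1% in rejuvenated old libraries, without overlap. The ratio of Lama4 to Lama5 normalized counts was 2.05 ± 0.205 in old and 1.02 ± 0.120 in rejuvenated old MSCs, a log2 difference of -1.01 (exact two-sided permutation test with 924 splits, p = 0.00216, which no split can go below, adjusted p = 0.00354 over 18 tests). The same ratio in young MSCs was 0.197 ± 0.0126. Lama1, an alpha chain outside the chosen members that was named after its values were seen, had 37.2 ± 4.10 normalized counts in young MSCs, 820 ± 39.1 in old MSCs and 794 ± 73.9 in rejuvenated old MSCs and does not enter these shares.

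Among the beta chains and the nidogens the composition differed between young and old MSCs, and no difference between the old groups was called. Lamb1 held 32.1% ± 0.847 of the beta chain total in young MSCs, 73.6% ± 1.58 in old MSCs and 73.8% ± 1.38 in rejuvenated old MSCs. Nid1 held 35.7% ± 0.938 of the nidogen total in young MSCs, 76.6% ± 0.950 in old MSCs and 76.1% ± 1.73 in rejuvenated old MSCs. The log2 ratio of Lamb1 to Lamb2 differed by -2.56 between young and old MSCs and that of Nid1 to Nid2 also by -2.56 (exact permutation adjusted p = 0.00354 for each). Between rejuvenated old and old MSCs these differed by 0.02 and -0.03 (exact permutation adjusted p = 0.768 and 0.728). Hspg2 held 79.0% ± 1.89 of the proteoglycan pair in young MSCs, 77.3% ± 5.41 in old MSCs and 72.8% ± 3.93 in rejuvenated old MSCs, and its log2 ratio to Agrn differed by -0.36 between the old groups (exact permutation adjusted p = 0.147). Without old replicate 2 that difference was -0.52 (exact permutation adjusted p = 0.0111). Leaving out rejuvenated old replicate 1 instead gave -0.27 (exact permutation adjusted p = 0.287).

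**Figure D3:**
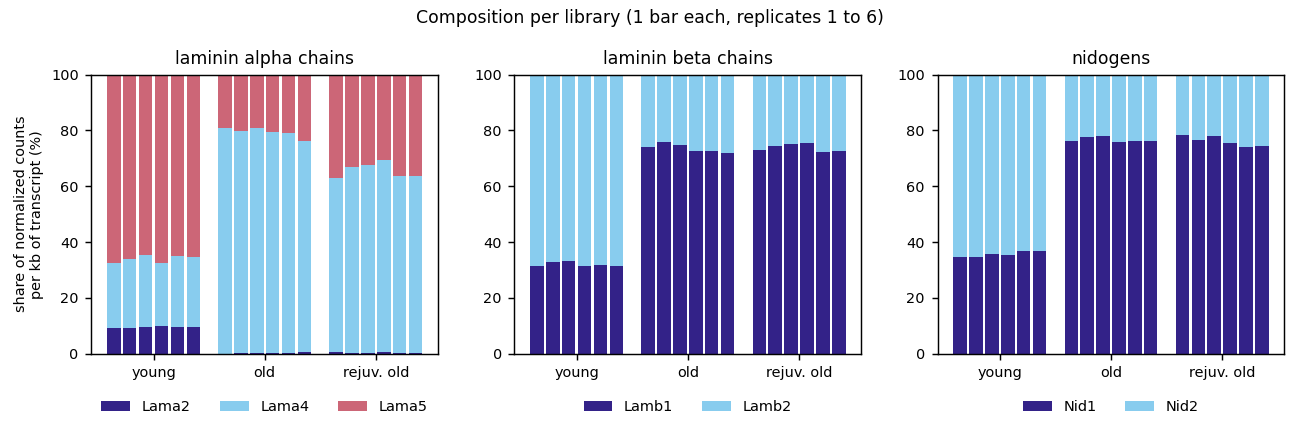
Share (y axis, percent) of the normalized counts per kb of transcript that each member held within the laminin alpha chains, the laminin beta chains and the nidogens, with 1 stacked bar for each library in the order of replicates 1 to 6. Lama5 takes 30.6% to 37.1% of the alpha chain total in the rejuvenated old libraries and 19.1% to 23.9% in the old ones, while the beta chain and nidogen bars of both old groups overlap in height.

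Summed per kb, the 3 alpha chain members came to 628 ± 30.6 normalized counts in young MSCs, 221 ± 10.2 in old MSCs and 213 ± 9.84 in rejuvenated old MSCs, and the beta chains to 2821 ± 63.9, 4154 ± 124 and 4158 ± 173. The beta total was thus 4.50 ± 0.197 times the total of these alpha chains in young MSCs, 18.9 ± 0.673 times in old MSCs and 19.6 ± 1.22 times in rejuvenated old MSCs. That alpha total leaves out Lama1, with means of 37.2, 820 and 794 normalized counts in young, old and rejuvenated old MSCs. It also leaves out Lama3 (254, 6.44 and 2.74). With these counted the alpha total would be higher and the beta to alpha ratio lower, in the old groups chiefly through Lama1. The difference between young and old MSCs in this ratio thus depends on the alpha chains counted. The assembled trimer takes 1 chain of each class, but transcripts do not measure protein. The ratio of Lamc1 to Lamb1 was 1.05 ± 0.0830 in young MSCs, 0.403 ± 0.0219 in old MSCs and 0.309 ± 0.0406 in rejuvenated old MSCs. The log2 difference between the old groups was -0.39 (exact permutation adjusted p = 0.00649). Of the 18 ratio tests 13 passed. Those of Lama2 to Lama4 in comparisons with young MSCs are among these. They are a description only, since Lama2 passed the filter by its young libraries.

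On several chromosomes most genes shifted in the same direction between young and old MSCs, and members on them have to be read beside that shift. The median log2 fold change of young against old MSCs was -0.69 over the 800 genes tested on chromosome 1, where Lamc1 lies at 153218922 to 153332786 (mm10). It was -0.46 over the 496 genes of chromosome 12 (Lamb1) and -0.30 over the 520 genes of chromosome 13 (Nid1). When each library was scaled to the median level of the member's own chromosome, Lamc1 was higher in young than in old MSCs (log2 fold change 0.35, limma adjusted p = 3.30e-06), where the unscaled value was -0.37. Lama4 on chromosome 10 became 0.12 (limma adjusted p = 0.0126). This scaling takes off the median level of each library, which is not the median log2 fold change. By fold change Lama4 lay at the middle of its chromosome, at -0.18 beside a median of -0.19, with 50.5% of the genes below it. Its change of sign is therefore not read as a difference from its chromosome. Lamb1 was -1.29 and Nid1 -1.86 on this scale, both still lower in young MSCs. Nid2 on chromosome 14 was 0.20 in young against old MSCs, where the unscaled value was 0.31, and -0.14 in rejuvenated old against young MSCs, where it was -0.25. Lama4 in rejuvenated old against young MSCs went from -0.14 to -0.43 (limma adjusted p = 2.52e-09). The chromosome medians of rejuvenated old against old MSCs were near 0 for the chromosomes of the members (-0.01 to 0.02), and the 4 calls there kept their directions, with Lamc1 at -0.37 and Lama5 at 0.69. Lamc1 in rejuvenated old against young MSCs, which was not called, became -0.72 on this scale (limma adjusted p = 2.29e-11). On this scale 4 of 10 members were called in rejuvenated old against old MSCs (41.1% of all genes), 10 in young against old MSCs (84.6%) and 10 in rejuvenated old against young MSCs (83.9%). The counts with young MSCs include Lama2, which had to differ there because it passed the filter by its young libraries.

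**Figure D4:**
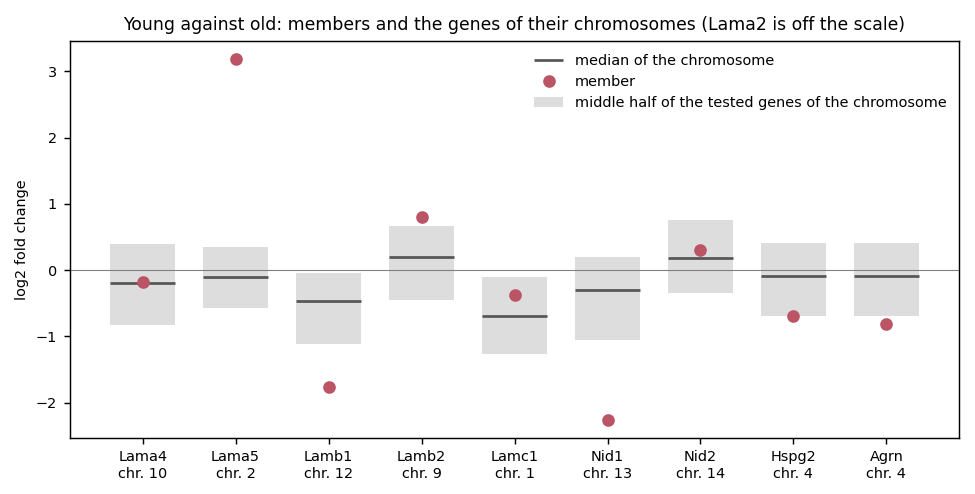
Log2 fold change of young against old MSCs (y axis) for 9 members (red points), over a grey box from the 25th to the 75th percentile and a line at the median of the genes tested on the same chromosome; Lama2, at 6.29, is off the scale. Lamc1 at -0.37 lies above the median of chromosome 1 at -0.69, and Nid1 and Lamb1 lie below the boxes of their chromosomes.

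The libraries with the most Agrn in both old groups also had the most of a neighbouring transcript. Isg15, an interferon-stimulated gene for a ubiquitin-like protein, lies at chr4:156199424-156200818 (mm10) on the minus strand. This is 1890 bases upstream of the outermost annotated start of Agrn, at 156197533 on the same strand. Old replicate 2 had the most Agrn (4745 normalized counts, with 2767 in the next old library) and 10642 Isg15 normalized counts, where the old median was 2696. Rejuvenated old replicate 1 had 4043 Agrn and 8577 Isg15 normalized counts, the highest of its group for both. This was looked for after the Agrn values were seen, so the correlations that follow are a description and carry no p. Across the 6 old libraries Pearson's r on the log2 scale was 0.93 and Spearman's rho was 1, and r was 0.93 without the 2 libraries farthest from the median. Across the 6 young libraries r was 0.91 and rho 0.77, and r was 0.67 without the 2 farthest. Across the 6 rejuvenated old libraries r was 0.81 and rho 0.60, and r fell to -0.003 without the 2 farthest, so the relation there rests on those libraries. The mean of 12 interferon-stimulated genes gave r of 0.94, 0.91 and 0.92 with Agrn in the young, old and rejuvenated old libraries. Its rho was 0.83, 1 and 0.71, and r was 0.78, 0.90 and 0.38 without the 2 farthest. On the log2 scale this mean ran from 10.32 to 11.51, from 8.63 to 11.43 and from 8.87 to 10.99 in these groups. Agrn was lowest in the young libraries (1367 to 1926 normalized counts), where this mean was at the high end of its range. The relation with this mean thus did not hold between the groups. Isg15 alone had its lowest median in young MSCs (1353, with 2696 in old and 4451 in rejuvenated old MSCs).

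The sequence upstream of each gene is shown because the highest library was the same for both in the old and in the rejuvenated old group. The Agrn window is chr4:156197534-156197738 and the Isg15 window chr4:156200819-156201068 (GRCm38.p6, RefSeq), both on the minus strand and printed 5′ to 3′, and capitals mark the interferon-stimulated response element on either strand, searched as GAAA and GAAA with 2 bases of any kind between them.
Agrn: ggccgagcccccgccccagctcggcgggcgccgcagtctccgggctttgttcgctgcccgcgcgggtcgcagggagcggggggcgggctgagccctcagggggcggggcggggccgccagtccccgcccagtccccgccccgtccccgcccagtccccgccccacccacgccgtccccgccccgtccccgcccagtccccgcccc
Isg15: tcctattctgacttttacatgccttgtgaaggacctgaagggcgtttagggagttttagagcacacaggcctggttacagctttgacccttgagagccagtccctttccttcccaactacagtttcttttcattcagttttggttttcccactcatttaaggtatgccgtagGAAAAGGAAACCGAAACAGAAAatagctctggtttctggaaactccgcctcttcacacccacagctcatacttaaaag
The Isg15 window held 3 overlapping matches, and 2.98% of all windows held at least 1. Neither of the windows at the 2 annotated Agrn starts held a match. The full window of the first start had a GC content of 83.6% and 12 GC box matches.

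**Figure D5:**
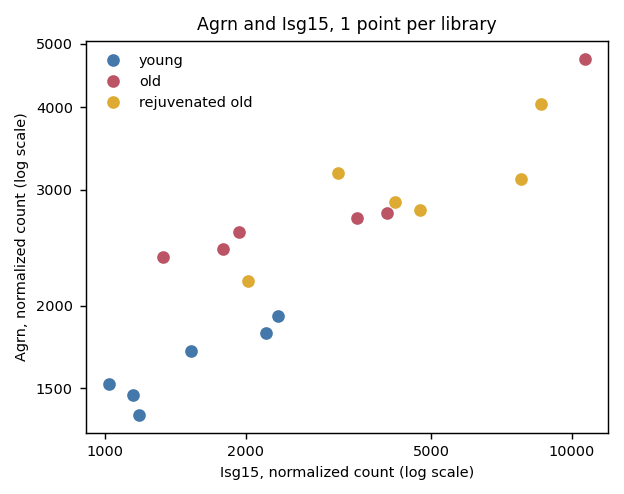
Normalized counts of Agrn (y axis, log scale) against those of Isg15 (x axis, log scale), with 1 point per library in the colours of the 3 groups. The highest point of the old group, old replicate 2, is at 4745 Agrn and 10642 Isg15, and the highest rejuvenated old point at 4043 and 8577.

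The other genes of the basement membrane were read from lists written from general knowledge. Of the 5 other laminin chains 3 passed the filter, and 1 of these (41.6% of all genes), Lama3, an alpha chain of epithelial laminins, was called in rejuvenated old against old MSCs (log2 fold change -0.96 ± 0.28 SE, limma adjusted p = 0.00849), from a level of only 6.44 ± 3.63 normalized counts in old MSCs. It passed the filter through its young libraries (254 ± 29.4). Over the 3 the median was -0.05 on the log2 scale. In young against old MSCs 2 were higher and 1 lower, that is 3 of 3 beside 85.7% of all genes, and the call of Lama3 there is a description only. Of 10 basement membrane collagens 3 fell in rejuvenated old MSCs and the other 7 were not called, where 41.6% of all genes were, with a median log2 fold change of -0.38 beside 0.01 over all genes tested. In young against old MSCs 3 were higher and 4 lower, or 7 of 10 beside 85.7% of all genes, with a median of 0.15 beside -0.02. Col4a6 passed the filter through its young libraries and Col15a1 through the old groups, so their calls there are a description only. Those that fell were type IV collagens, the chains that form the collagen network of the sheet.

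Col4a1 had 29444 to 31896 normalized counts in old and 15450.0 to 18223 in rejuvenated old libraries, without overlap (log2 fold change -0.81 ± 0.04 SE, limma adjusted p = 4.38e-13), and 18175 to 20302 in young ones. Col4a2, whose gene shares a promoter region with Col4a1, had 18509 to 19718 in old and 10059 to 11586 in rejuvenated old libraries (-0.79 ± 0.03, limma adjusted p = 5.45e-14), and 11342 to 12305 in young ones. Both were thus close to, and a little below, the young level in rejuvenated old MSCs (-0.14 and -0.10 against young, limma adjusted p = 0.00271 and 0.0126). Col4a4 fell as well (-0.98 ± 0.17, limma adjusted p = 8.09e-05), at 29.0 ± 4.45 normalized counts in old and 14.5 ± 3.98 in rejuvenated old MSCs. Col4a3, Col4a5 and Col4a6 had differences of -0.59, 0.05 and 0.24 (limma adjusted p = 0.061, 0.565 and 0.468).

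Of 16 other basement membrane proteins 12 passed the filter, and 4 rose and 6 fell in rejuvenated old against old MSCs (median log2 fold change -0.21), or 10 of 12 beside 41.6% of all genes. On the log2 scale the largest rise was that of Egfl6, an integrin ligand, from 2.88 ± 1.77 to 5.48 ± 2.04 normalized counts (log2 fold change 0.79 ± 0.25 SE, limma adjusted p = 0.0126), where young MSCs had 1518 ± 98.5. The largest fall on that scale was that of Fras1, a protein of epithelial basement membranes, from 8.18 ± 3.29 to 3.48 ± 4.53 (-1.43 ± 0.43, limma adjusted p = 0.00962). Both were at a few reads per library in the old groups and passed the filter, as Frem1 did, through the young libraries, while Smoc1 passed through the old groups. Smoc2, a matricellular protein named after its values were seen, fell more in its mean level, from 195 ± 21.4 to 76.9 ± 23.7 normalized counts (-1.38 ± 0.13, limma adjusted p = 2.39e-08). The other rises were those of Fbln2, Smoc1 and Tinagl1, also named after their values were seen. Fbln2 went from 11309 ± 680 to 16179 ± 2590 normalized counts (0.50 ± 0.07, limma adjusted p = 7.12e-06). Smoc1 went from 2373 ± 85.6 to 3691 ± 369 (0.63 ± 0.21, limma adjusted p = 0.0183). Tinagl1 went from 183 ± 26.3 to 279 ± 34.6 (0.61 ± 0.09, limma adjusted p = 6.77e-06). In young against old MSCs 7 of the 12 were higher and 5 lower (median 1.98), or 12 of 12 beside 85.7% of all genes. Egfl6, Fras1, Frem1 and Smoc1 enter these counts and the median. Their calls there are a description only, since the filter let them through by those libraries.

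Among 12 receptors 10 passed the filter, and 1 rose and 3 fell in rejuvenated old against old MSCs (median log2 fold change -0.14), close to the 41.6% of all genes. In young against old MSCs 6 were higher and 4 lower (median 0.76), or 10 of 10 beside 85.7%. Itga1, a collagen and laminin receptor subunit, rose from 1106 ± 43.0 to 1438 ± 176 normalized counts (log2 fold change 0.37 ± 0.07 SE, limma adjusted p = 0.000149), with 251 ± 21.2 in young MSCs. Itga6, the alpha subunit of laminin-binding integrins, fell from 100.5 ± 16.6 to 46.6 ± 20.2 (-1.19 ± 0.21, limma adjusted p = 8.79e-05), with 247 ± 42.2 in young MSCs. Dag1, which encodes dystroglycan, the shared receptor of laminins, perlecan and agrin, fell from 1169 ± 172 to 760.4 ± 154 (-0.63 ± 0.11, limma adjusted p = 0.00012), with 2188 ± 223 in young MSCs. Itga6 and Dag1 thus lay lowest in rejuvenated old MSCs.

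Of 13 genes that build the sugar chain by which dystroglycan binds laminin, 2 fell in rejuvenated old against old MSCs and the other 11 were not called (median log2 fold change -0.06), where 41.6% of all genes were called. These were the mannosyltransferase Pomt2 (log2 fold change -0.16 ± 0.05 SE, limma adjusted p = 0.00723) and Pomgnt1 (-0.12 ± 0.03, limma adjusted p = 0.00655). In young against old MSCs 3 were higher and 7 lower (median -0.30), or 10 of 13 beside 85.7% of all genes. Large2 passed the filter through the old groups, so its call there is a description only. Of 13 genes of heparan sulfate synthesis 12 passed the filter, and 1 rose and 7 fell (median log2 fold change -0.14), where 21% of all genes rose and 20.6% fell. The rise was that of Xylt2, which starts the chain (0.14 ± 0.03, limma adjusted p = 0.000868), and the largest fall that of the sulfotransferase Hs2st1 (-0.33 ± 0.05, limma adjusted p = 9.16e-06), from 1978 ± 63.5 to 1577 ± 130 normalized counts with 1560.1 ± 90.0 in young MSCs. In young against old MSCs 3 of the 12 were higher and 8 lower (median -0.39), or 11 of 12 beside 85.7% of all genes.

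For each member the 1 gene whose profile over the 18 libraries was nearest was found by the root mean square difference of log2(normalized count + 1) after each gene's own mean was removed. No member had another member as its nearest gene. Hspg2 was nearest to Plxna1 (0.05), Lamb1 to Enpp5 (0.05), Nid2 to Depdc5 (0.05), Lamc1 to Scyl2 (0.06), Lamb2 to Kmt2b (0.06) and Lama4 to Pbxip1 (0.07). Nid1 was nearest to Man2b2 (0.09), Agrn to Nlrc5 (0.13), Lama5 to Cavin2 (0.17) and Lama2 to Dennd3 (0.48). The large distance of Lama2 came with read counts of 2 to 13 in the old groups.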

How the data were processed

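MSC RNA was prepared by the authors with a stranded mRNA kit and sequenced, 18 libraries in 3 groups. According to the labels' processing notes and the methods, reads were aligned to mm10 with HISAT2, assembled with StringTie, counted with featureCounts and normalized with DESeq2. Versions, annotation, strand setting and filters are not given in the sources used here. Each deposited value is a signal for 1 gene in 1 library, its reads divided by a size factor. Whole reads were recovered from them, and 100% of values came out whole (largest departure 5.55e-05 of a read). In old replicate 5 and young replicate 2 a read is worth close to 1 normalized count, so that whole multiples are harder to tell from rounding there.

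The values went as log2(value + 1) into limma 3.58.1 in R 4.3.3 (trended prior, all 18 libraries in 1 fit, Benjamini-Hochberg over 14353 genes with a mean of at least 10, threshold 0.05). The added 1 understates the fold changes of low genes. Ratios of 2 members were tested by exact two-sided permutation over 924 splits with scipy 1.17.1 and numpy 2.4.6. edgeR 4.0.16 and DESeq2 1.42.0 on the recovered reads were alternatives, and the fits were tested on simulated counts. Other alternatives were pseudocounts of 0.5 and 10, no filter or a mean of at least 50, 4 other scalings and scaling to the own chromosome, fits of 2 groups, a single prior variance, a replicate block, an adjusted p under 0.01, a log2 fold change of 0.5 or more in size, and leaving out each library in turn. Leaving out old replicate 2 together with rejuvenated old replicate 1 was chosen after seeing the data. Replicate numbers did not pair the cultures, and the labels give no batch.

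The members, the gene lists and the rule for named genes were chosen with earlier results of these data known, and the interferon-stimulated list after the Agrn values were seen. The rule named all members, the called genes with the largest and smallest log2 fold change of rejuvenated old against old MSCs in each list, the type IV collagens, Dag1, the nearest gene of each member and the markers given. Lama1, Col15a1, Smoc1, Smoc2, Fbln2, Tinagl1, Isg15 and Rtraf were added after their values were seen. A level of at most 3 reads per library was treated as a floor. Transcript lengths and gene positions are from the GENCODE M21 and RefSeq annotations of mm10. Depth was 22936251 to 29559194 reads per library, and SDs, SEs and intervals are over libraries.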

Additional observations from a re-analysis of the deposited data

Results flagged for a closer look

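Of 30 groups of 6 libraries (10 members in 3 groups), 3 had a library farther from the rest than Dixon's 95% limit, where chance gives about 1 in 20. Lama4 was lowest in rejuvenated old replicate 5, at 758.1 normalized counts with 840.3 in the next library (a gap of 0.66 of the range). Nid1 was lowest in the same library, at 18269.9 with 21175.8 in the next (0.756). Agrn was highest in old replicate 2, at 4744.9 with 2766.8 in the next (0.832), the old library with the most Isg15.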

How the results depend on the processing

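Counts of calls and fold changes of members were recomputed under 16 other settings, without each of the 18 libraries in turn, and without old replicate 2 and rejuvenated old replicate 1 together. Ratios were recomputed with a pseudocount of 10, with a replicate block and without each library, and shares, totals, correlations and nearest genes were not recomputed. Requiring a log2 fold change of 0.5 or more in size left 1 member called in rejuvenated old against old MSCs (Lama5), and 1239, 8069 and 7873 genes in rejuvenated old against old, young against old and rejuvenated old against young MSCs. That follows from the limit itself, as do the lower list counts under it: 6 of 10 called other basement membrane proteins, 0 of 2 dystroglycan glycosylation and 0 of 8 heparan sulfate synthesis genes in rejuvenated old against old MSCs, 6 of 10 and 5 of 11 of the latter lists in young against old MSCs, and 5 of 10 and 5 of 9 in rejuvenated old against young MSCs. Quantile normalization gave 5 collagens where 3 were called and 4 dystroglycan glycosylation genes where 2 were called, and leaving out rejuvenated old replicate 6 also gave 4 of these. Without a filter 2, 5 and 5 other laminin chains were called where 1, 3 and 3 had been, and a mean of at least 50 left 6 collagens where 10 had been called in rejuvenated old against young MSCs. The counts of members called were 4, 10 and 9 without any 1 library, and with DESeq2 and edgeR. Without old replicate 2 and rejuvenated old replicate 1 they were also 4, 10 and 9.

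Members with differences near 0 changed sign in rejuvenated old against old MSCs without being called. Lamb1 became -0.0099 with equal totals, -0.026 with quantile normalization and -0.025 relative to its chromosome. Nid1 became -0.050 with quantile normalization and -0.033 relative to its chromosome, and Lamb2 became 0.0073 relative to its chromosome. Called values of young against old MSCs that turned were Lamc1 (0.35) and Lama4 (0.12), both relative to their chromosome. By fold change Lama4 lay at the middle of its chromosome, so its turn is not read as a difference. With 1 library left out, rejuvenated old against old MSCs ranged from -0.0077 to 0.029 for Lamb1, from -0.050 to 0.0095 for Lamb2, from -0.00019 to 0.067 for Nid1 and from -0.022 to 0.21 for Agrn. Lamc1 in rejuvenated old against young MSCs ranged from -0.048 to 0.049. Log2 ratios ranged from -0.13 to 0.29 for Lama2 to Lama4 and from -0.0085 to 0.051 for Lamb1 to Lamb2 in rejuvenated old against old MSCs, and from -0.034 to 0.19 for Hspg2 to Agrn in young against old MSCs. The causes were not tested.

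Replicate numbers did not pair the cultures (r of -0.152 to 0.0736 over 18 pairs, with 0 libraries closest to their own number). A replicate block gave 4, 10 and 9 members and 5769, 12219 and 12210 genes called, and 12 of the 18 ratios, where Lamc1 to Lamb1 in rejuvenated old against old MSCs kept -0.39 with an adjusted p = 0.0865 by exact sign flips. Depth limits only Lama2 in the old groups, at 2 to 13 reads per library.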
